A study of Mus musculus with 6 samples.

Results

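The genes described here are 60 named members of the Wnt pathway, chosen by name from among the 22350 protein-coding genes of the annotation. They comprise 16 Wnt ligands, 3 R-spondins, 15 receptors and co-receptors, 2 ubiquitin ligases that act on the receptors, 9 secreted inhibitors, 9 cytoplasmic components and 6 nuclear factors, and all 60 were found in the mouse mm9 (NCBIM37) annotation. C2C12, an established mouse myoblast line, was the source of every library. Chromatin immunoprecipitation and sequencing gave 1 library for H3K9me3, 1 for Setdb1 in each of 3 conditions (with no treatment named, labelled with DMSO, and treated with 50 ng/ml Wnt3a for 24 h) and 2 input libraries. The 3 lists of regions were used here for what they hold, the Setdb1 sites, the H3K9me3 peaks called by MACS and the broad H3K9me3 islands called by SICER. The Setdb1 list names no library of origin among these 3, no list from the Wnt3a library was used, and a response to Wnt3a was not analysed. The paper states that its 2 independent Setdb1 experiments were correlated and that peaks were called on the more enriched one. With 1 library per group no difference has a replicate check here, so counts and values below are descriptions of these lists.

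Wnt ligands are secreted proteins that bind a Frizzled receptor together with an LRP co-receptor at the cell surface. In the canonical branch the Axin, APC and GSK3 destruction complex is then inhibited, beta-catenin accumulates and enters the nucleus, and TCF/LEF factors activate genes that include Axin2, Nkd1, Notum, Rnf43, Znrf3, Lgr5 and Sp5, several of which feed back to restrain the signal. Setdb1 is an enzyme that places methyl groups on lysine 9 of histone H3, and the trimethylated form, H3K9me3, marks silenced chromatin. Wnt signalling takes part in the renewal and differentiation of muscle precursor cells.

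H3K9me3 was found at the starts of 10 of the 60 genes and over 90% or more of the length of 5 of them, Axin2, Fzd10, Wnt5a, Sp5 and Fzd8. Setdb1 was listed at none of the 60 starts, where 1.11% of all protein-coding genes had a site, and inside 1 gene, Axin1 (1.67%), where 1.76% of all genes had one. An H3K9me3 region means a MACS peak or a SICER island, a start means 1 kb on each side of any annotated transcript start, and the body is the rest of the gene. The share of genes with H3K9me3 at a start was 16.7% (95% exact binomial interval 8.29 to 28.5%) among the members and 11.7% among all protein-coding genes. Counting only MACS peaks of p below 1e-05, 8 members had one at a start (13.3%, 5.94 to 24.6%), against 4.95% of all genes. The intervals are Clopper-Pearson intervals and cover counting error only.

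Few genes were covered over nearly all of their length. The 5 members with at least 90% of their bases under H3K9me3 were 8.33% of the list (2.76 to 18.4%), where 1.66% of all genes had such cover. Sp5, Fzd10 and Fzd8 are under 10 kb long, a length class in which 3.62% of all genes were covered to this extent, whereas Axin2 and Wnt5a are between 10 and 50 kb long, where 0.358% were. The median share of the gene under H3K9me3 was 0.361% over the members and 0 over all genes, and the 90th percentile was 45.3% against 12.8%. Members were also longer than the average gene, with a median of 30.6 kb against 15.4 kb.

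**Figure D1:**
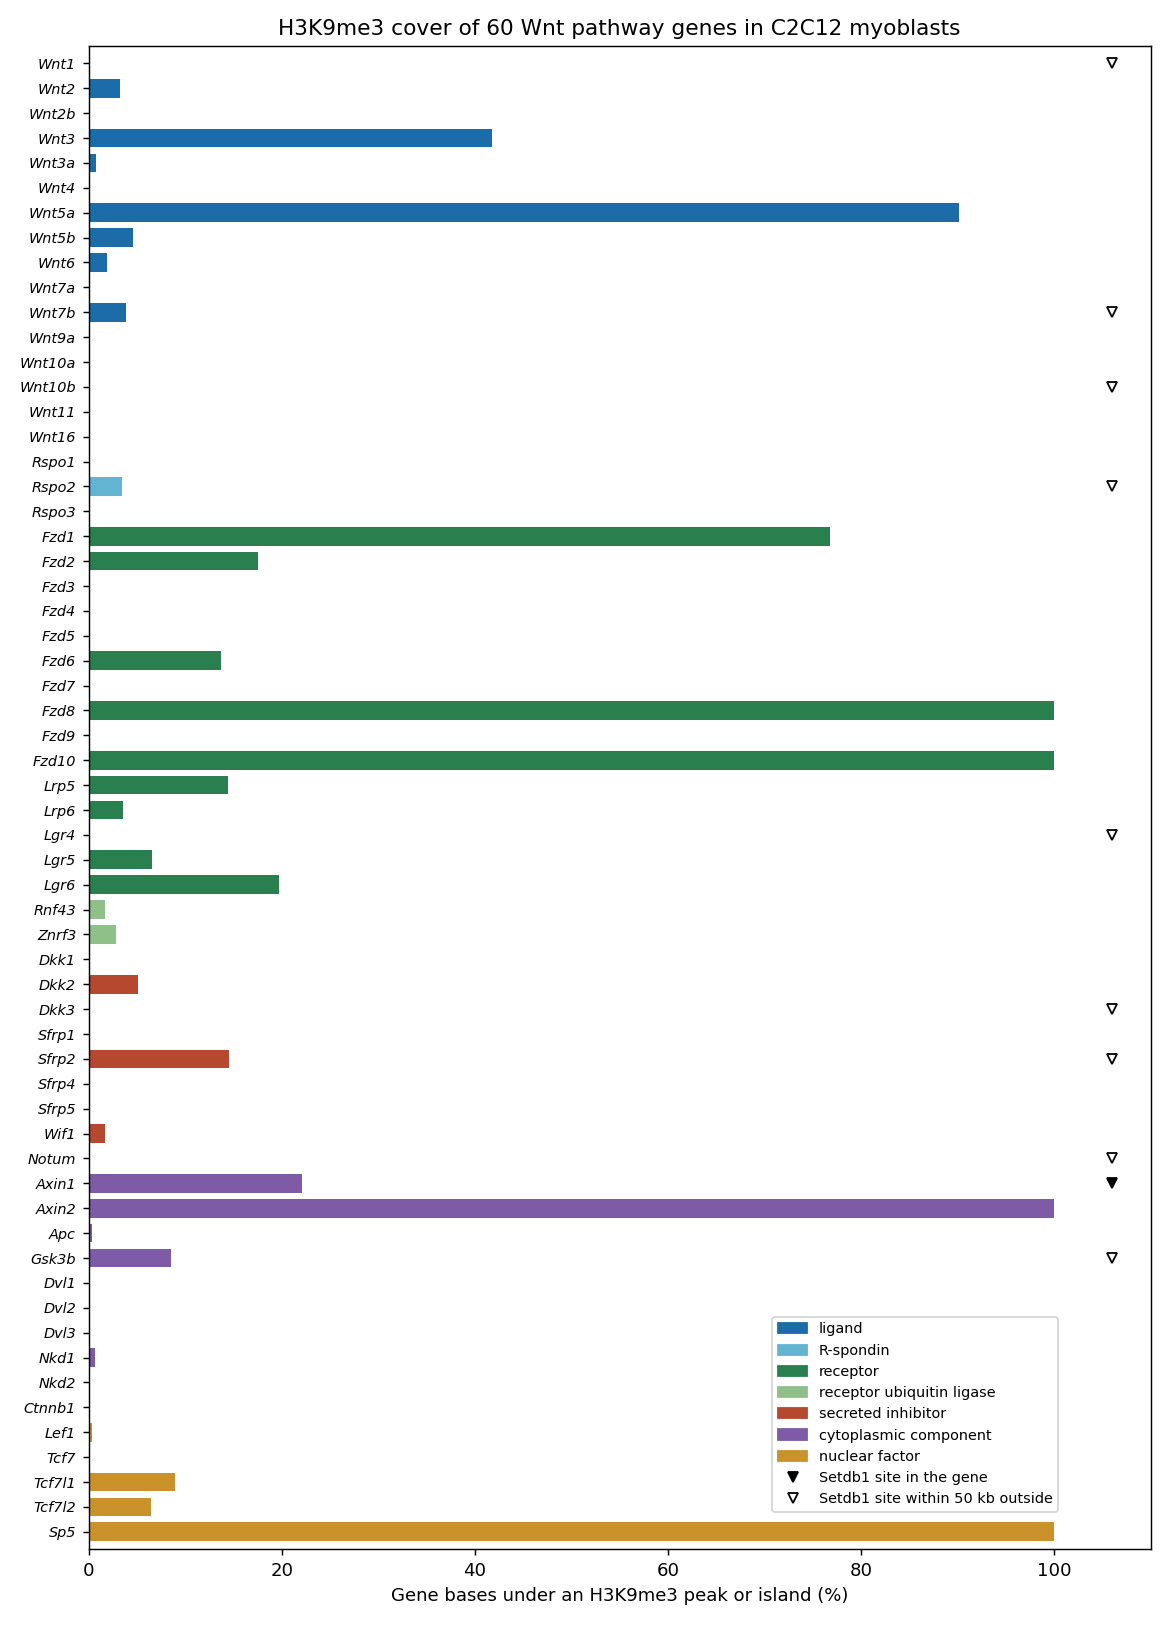
Bars give the share of each gene's bases, in percent, under an H3K9me3 MACS peak or SICER island, for the 60 members coloured by role and in 1 library; triangles mark the 10 members with a Setdb1 site in the gene (filled) or within 50 kb outside it (open). Axin2, Fzd10, Fzd8 and Sp5 reach 100%, Wnt5a 90.2% and Fzd1 76.8%, and 29 members have no marked base.

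The starts of Axin2, Fzd10, Wnt5a and Sp5 are shown because each lay inside an island that covered nearly all of the gene, and so that their CpG dinucleotides can be seen. The start of Fzd8 also lay inside such an island and is not shown. Each window runs from 250 bases before the 5′ end of the gene to base 50 of it, on the strand of the gene in mm9, with CpG dinucleotides in capitals.
Axin2 start (chr11:108781413-108781712, + strand): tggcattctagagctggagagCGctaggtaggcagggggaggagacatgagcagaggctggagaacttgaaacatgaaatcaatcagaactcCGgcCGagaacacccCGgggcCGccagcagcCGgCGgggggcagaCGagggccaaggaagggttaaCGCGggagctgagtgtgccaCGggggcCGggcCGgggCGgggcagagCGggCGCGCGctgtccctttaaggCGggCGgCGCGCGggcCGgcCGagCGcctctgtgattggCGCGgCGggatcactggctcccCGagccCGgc
Fzd10 start (chr5:129106469-129106768, + strand): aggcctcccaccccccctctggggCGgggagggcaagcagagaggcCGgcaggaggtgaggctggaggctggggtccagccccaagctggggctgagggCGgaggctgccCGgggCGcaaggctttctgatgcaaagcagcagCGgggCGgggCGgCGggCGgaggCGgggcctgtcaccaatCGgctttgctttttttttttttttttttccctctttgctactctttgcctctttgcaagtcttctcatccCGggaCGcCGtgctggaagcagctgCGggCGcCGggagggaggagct
Wnt5a start (chr14:29317686-29317985, + strand): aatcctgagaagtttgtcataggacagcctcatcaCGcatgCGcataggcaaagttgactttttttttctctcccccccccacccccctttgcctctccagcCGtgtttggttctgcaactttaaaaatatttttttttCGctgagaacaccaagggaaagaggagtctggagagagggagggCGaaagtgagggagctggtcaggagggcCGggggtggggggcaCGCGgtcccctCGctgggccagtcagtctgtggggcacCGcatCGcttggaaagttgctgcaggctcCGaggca
Sp5 start (chr2:70312730-70313029, + strand): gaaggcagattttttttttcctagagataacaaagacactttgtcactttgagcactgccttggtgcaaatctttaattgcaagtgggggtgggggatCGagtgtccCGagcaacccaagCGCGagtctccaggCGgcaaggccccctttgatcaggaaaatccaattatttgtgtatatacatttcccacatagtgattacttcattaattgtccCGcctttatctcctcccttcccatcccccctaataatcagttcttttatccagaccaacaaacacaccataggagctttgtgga
The window held 31 CpG in Axin2, 18 in Fzd10, 12 in Wnt5a and 6 in Sp5, and the ratio of observed to expected CpG was 0.886, 0.566, 0.508 and 0.403 in that order. The TCF/LEF motif, searched as CTTTGAA or CTTTGAT on both strands, matched once among the 4, in Sp5, where CTTTGAT begins at base 147 of the window. Over all protein-coding genes 8.0% of such windows hold a match, and 5 of the 60 members do (8.33%). A match is a stretch of letters and not evidence of binding.

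Over the wider window of 500 bases on each side of the 5′ end, all 10 members with H3K9me3 at a start had a ratio above 0.6. It ranged from 0.625 at Wnt2 to 0.997 at Wnt5b, with a median of 0.771. The 50 other members had a median of 0.78, and all protein-coding genes 0.549. A ratio above 0.6 was found at 50 of the 60 members (83.3%) and at 45.6% of all genes, so the marked members resembled the rest of the list in this respect.

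**Figure D2:**
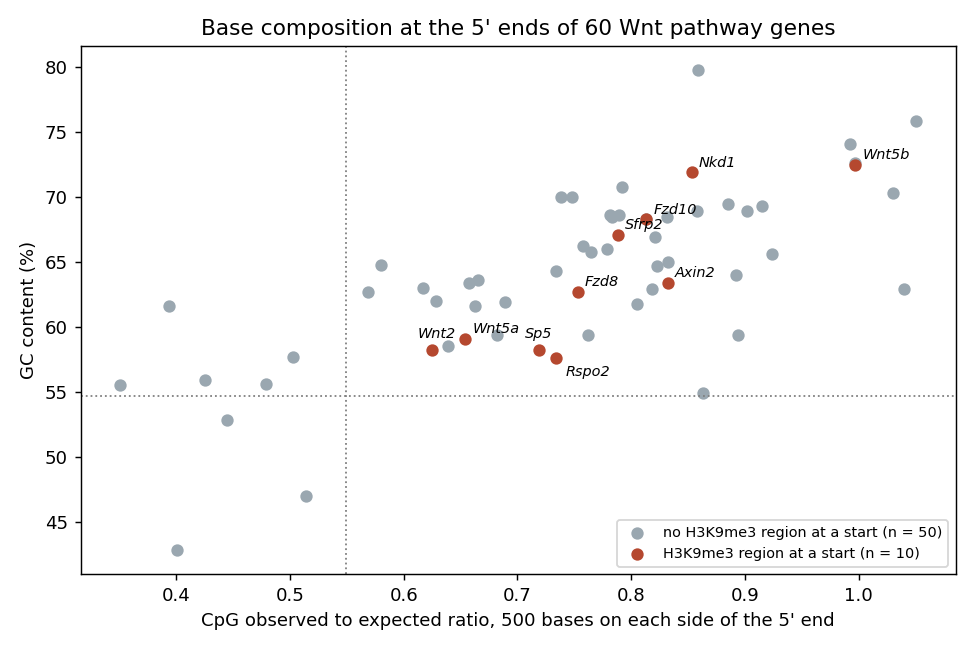
Each point is the 5′ end of 1 of the 60 members, with the ratio of observed to expected CpG on the x axis and GC content in percent on the y axis; dotted lines give the medians of all protein-coding genes, 0.549 and 54.7%. The 10 members with an H3K9me3 region at a start (red) lie among the other 50 (grey).

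Among the ligands, 7 of 16 had H3K9me3 at a start or in the body, where 30.9% of all protein-coding genes did, and Wnt5a had the largest cover. Wnt5a, which acts mainly through beta-catenin-independent signalling, lies at chr14:29317936-29340633. A single island of 27.6 kb covered 90.2% of it and began 7.13 kb upstream of its 5′ end. In all, 13 peaks fell in this island, 9 of them with p below 1e-05, and 11 peaks lay at the starts or in the body. The highest, with 103 tags and 9.62-fold enrichment, had its summit 0.074 kb from an internal transcript start, and a peak of 6.87-fold with 38 tags covered the 5′ end itself. Thus the island ran over the annotated promoters and most of the transcribed length of Wnt5a, while MACS peaks covered 30.5% of the gene.

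Wnt3, a canonical ligand, carried one of the strongest peaks of the whole list inside an intron. This peak had 190 tags and a fold of 13.71, a value reached by 0.293% of the 80480 H3K9me3 peaks, and its summit was 7.8 kb from the start. Wnt3 had 3 more peaks in its body, of 4.71- to 5.5-fold, and H3K9me3 covered 41.8% of the gene, yet no region came within 1 kb of its start. Wnt2 had a peak of 5.5-fold and 27 tags with its summit 1.18 kb and its nearest edge 0.764 kb upstream of the start, under an island of 3.2 kb. The start of Wnt5b, the closest relative of Wnt5a, had a lone weak peak of 11 tags and 5.5-fold with p above 1e-05, and its strongest peak, of 6.52-fold and 28 tags, was in an intron 26.8 kb from a start. Wnt3a, Wnt6 and Wnt7b had 1 peak each in the body, of 6.02-, 5.15- and 4.17-fold, all with p above 1e-05.

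The other 9 ligands had no marked base in the gene. Wnt1, Wnt2b, Wnt4, Wnt7a, Wnt9a, Wnt10a, Wnt10b and Wnt11 had an H3K9me3 region within 50 kb outside the gene, and Wnt16 had none. Of the R-spondins, secreted proteins that strengthen Wnt signals, Rspo2 was marked at its start by a peak of 59 tags and 5.13-fold, under an island of 2.2 kb. Rspo1 and Rspo3 had no region of any kind within 50 kb.

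Fzd10 and Fzd8 were the covered members among the receptors, of which 9 of 15 had H3K9me3 at a start or in the body. Fzd10 (chr5:129106719-129109968) is an intronless Frizzled receptor gene of 3.25 kb. It lay near the edge of an island of 76.4 kb, the 80th longest of 23268, which reached 2.92 kb upstream of the gene and 70.2 kb downstream of it and touched no other protein-coding gene. Another island, of 79.2 kb, lay directly upstream of it. The 4 peaks at the Fzd10 start had folds of 6.87, 8.25, 7.56 and 10.31, with 37, 31, 35 and 96 tags, and the second of them covered the 5′ end. In all, 77 peaks lay within 50 kb of Fzd10, a small gene in a broad marked domain.

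Fzd8 and Fzd1, also intronless, showed the opposite arrangement, in that the island over the gene was held to about the length of the gene. The Fzd8 island was 3.6 kb long and began 0.253 kb upstream of the gene. Its 3 peaks had folds of 5.5, 4.81 and 7.56, and the last, with 47 tags and its summit 1.93 kb into the gene, was the only one with p below 1e-05. Outside the gene, Fzd8 had a separate island of 4.0 kb, centred 17.3 kb downstream of the start, with a peak of 4.81-fold. Another peak, of 5.5-fold, lay 22.8 kb upstream of the start. Both of these outer peaks had p below 1e-05. At Fzd1 (chr5:4753842-4758216), the strongest peak in any of the 60 genes held 272 tags at 13.74-fold, and 0.292% of all H3K9me3 peaks reached that value. It was 3.24 kb wide and covered 74.0% of the gene, and the edge of its island was 1.02 kb from the start, just outside the window that defines a start. Fzd2 had 1 weaker peak of 27 tags and 3.89-fold. Fzd7 and Fzd9, the other intronless Frizzled genes of the list, had none in the gene.

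In the longer receptor genes the peaks lay in introns, save 1 weak exonic peak in Lgr5. Lrp5, a co-receptor, had 6 peaks of 4.11- to 10.13-fold and the highest of these, with 46 tags, was 13.0 kb from the start. Lgr6, an R-spondin receptor, had 10 intronic peaks of 4.65- to 10.31-fold and cover of 19.7%. Lgr5, a marker of several adult stem cells, had 5 peaks of 4.49- to 6.18-fold, 4 of them with p above 1e-05. Lrp6 and Fzd6 had 3 and 2 peaks in the body, none with p below 1e-05. Fzd3, Fzd4 and Lgr4 had H3K9me3 only outside the gene, within 50 kb, and Fzd5 had no region in that span. Rnf43 and Znrf3, the ligases that remove Frizzled receptors from the membrane, had 3 intronic peaks of up to 6.87-fold and 1 of 5.5-fold.

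Secreted inhibitors mostly act on Wnt proteins or their co-receptors outside the cell. H3K9me3 was found at a start or in the body of 3 of the 9 (33.3%, against 30.9% of all genes). Sfrp2, a decoy for Wnt proteins, was the only one with H3K9me3 at a start, where peaks of 31 and 23 tags had folds of 4.85 and 3.3 under an island of 4.2 kb. Dkk2 had 4 intronic peaks of 4.81- to 7.56-fold, all with p above 1e-05, and Wif1 had 3 peaks, each of 5.5-fold. Dkk3, Sfrp1, Sfrp4, Sfrp5 and Notum had H3K9me3 only outside the gene, within 50 kb. Sfrp1 had 9 peaks in that span and none in its 38.1 kb. Dkk1, which blocks the LRP co-receptors, had no region within 50 kb.

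Axin2 lay under the longest island found over any of the 60 genes. Of the 9 cytoplasmic components, 5 had H3K9me3 at a start or in the body (55.6%, 21.2 to 86.3%, against 30.9% of all genes). Axin2, a scaffold of the destruction complex and a target of Wnt signalling, lies at chr11:108781663-108812097 and was covered end to end by an island of 145 kb, the 22nd longest of 23268. The island reached 48.1 kb upstream and 66.5 kb downstream of the gene, and Axin2 was the only protein-coding gene that it touched. It held 90 peaks with folds of 4.12 to 9.62 (median 6.18) and 3308 tags in all, and 58 of these peaks had p below 1e-05. Of the 19 peaks at the starts or in the body of Axin2, every one had p below 1e-05, and they covered 64.3% of its bases, so both callers marked most of the gene. The 7 peaks at its starts had folds of 7.09 to 9.62 and 31 to 88 tags. No peak covered the 5′ end shown above, which lay inside the island with its nearest peak 0.885 kb away. In the paper, Axin2 mRNA was measured in C2C12 myoblasts, where Wnt3a raised it and IWP2, an inhibitor of Wnt production, lowered it. The lists hold no expression values, so this cover does not show that Axin2 was silent.

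**Figure D3:**
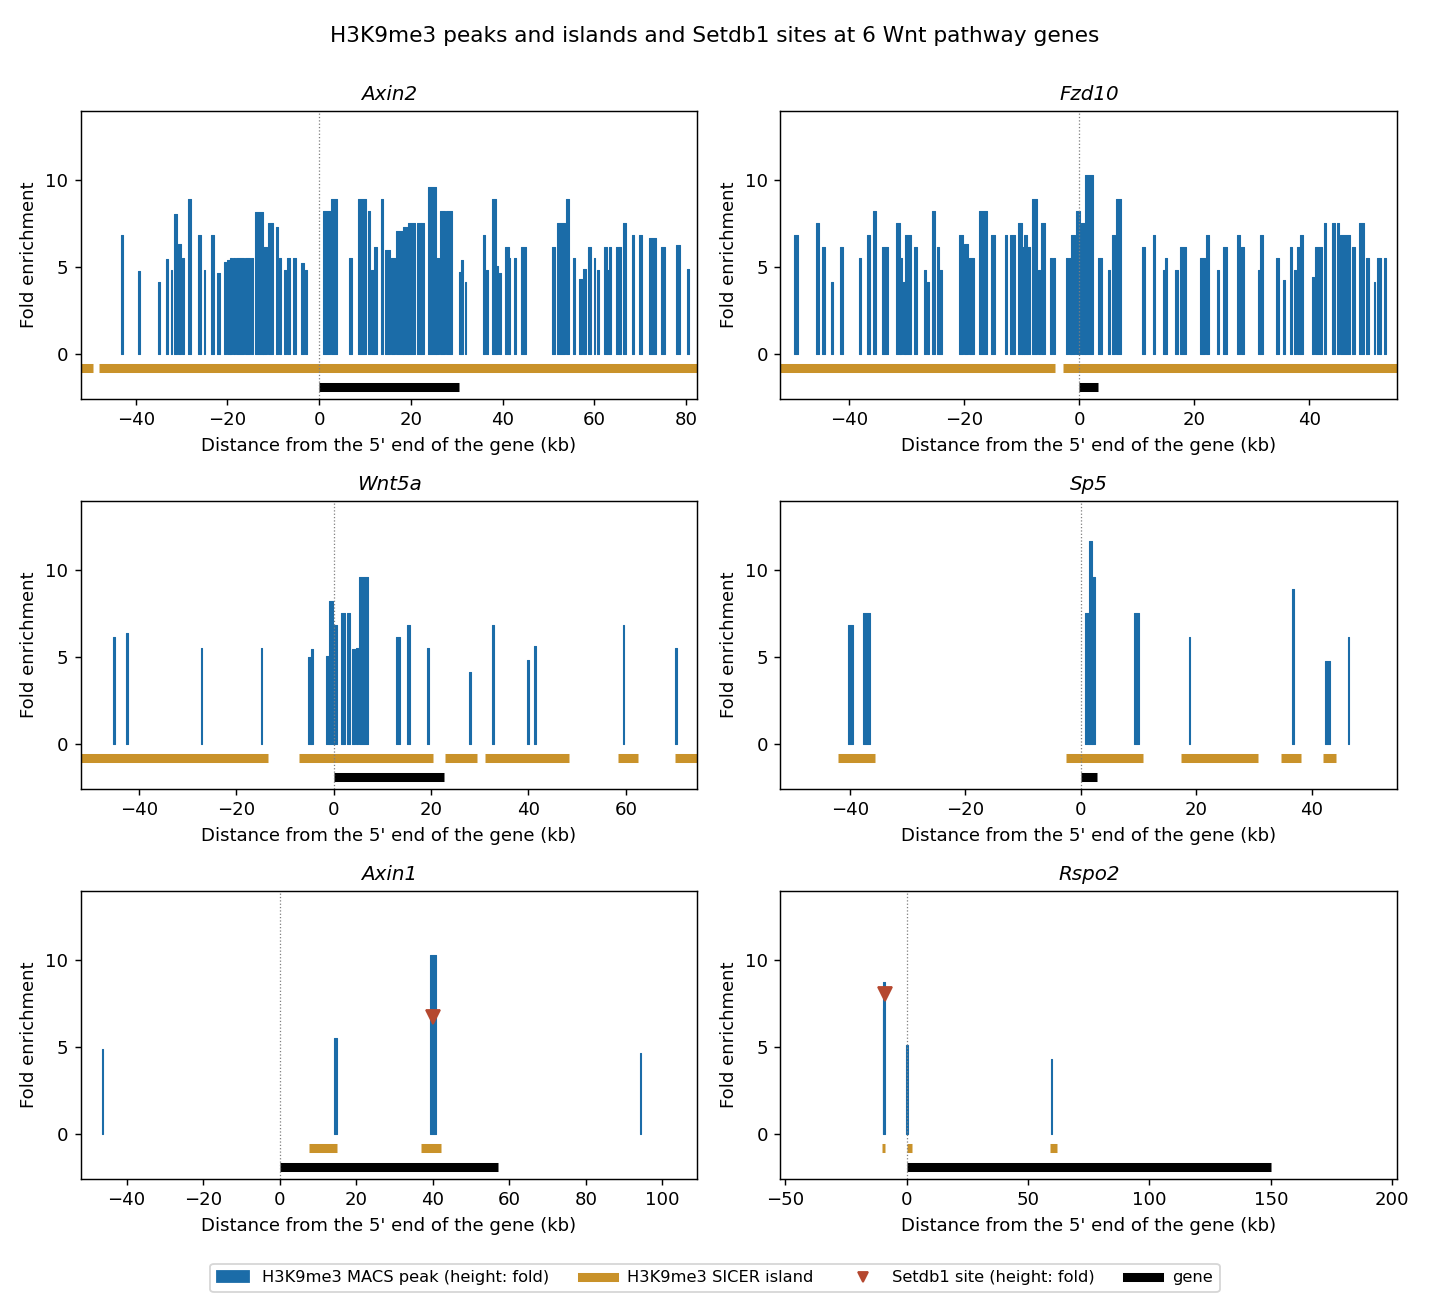
H3K9me3 MACS peaks (blue, height is fold enrichment), SICER islands (orange) and Setdb1 sites (red triangles, height is fold enrichment) are drawn against the distance in kb from the 5′ end of 6 genes (black bars), up to 50 kb outside each gene. Axin2 and Fzd10 lie in dense domains, Wnt5a and Sp5 in islands of 27.6 and 13.4 kb, and Axin1 and Rspo2 carry few peaks, 1 of them under a Setdb1 site in each.

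Its paralog Axin1 differed in cover and in Setdb1. Axin1 (chr17:26275631-26332756) had 2 peaks, both intronic, and cover of 22.1%. Nkd1, which inhibits Wnt signalling by binding Dishevelled, was marked at its start by peaks of 6.87- and 5.5-fold with 18 and 16 tags, of which the first had p below 1e-05, and no island covered them. Gsk3b, the kinase that phosphorylates beta-catenin, had 5 intronic peaks of 4.12- to 10.31-fold, the highest of 110 tags at 75.9 kb from a start. Apc, a scaffold of the destruction complex, had 1 intronic peak of 18 tags and 5.5-fold. Dvl1 and Dvl2, which relay the signal from Frizzled, had H3K9me3 only outside the gene, and Dvl3 and Nkd2 had no region within 50 kb.

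Sp5 was the covered gene among the nuclear factors. Of the 6 factors 4 had H3K9me3 at a start or in the body (66.7%, against 30.9% of all genes). Lef1, Tcf7l1 and Tcf7l2 are 114, 163 and 192 kb long, and 70.9% of all genes of 50 kb or longer were marked. Sp5 (chr2:70312980-70315786) encodes a zinc finger repressor that is itself induced by Wnt signalling. An island of 13.4 kb spanned it, from 2.58 kb upstream to 8.01 kb downstream, and held 4 peaks. Of these 3 were in the gene, with folds of 7.56, 11.68 and 9.62 and 33, 35 and 20 tags, and 0.958% of all peaks reached the highest value. The nearest peak was 0.776 kb from the 5′ end. Tcf7l1 and Tcf7l2, DNA-binding partners of beta-catenin, had intronic peaks only, 5 of up to 9.61-fold and 2 of up to 9.62-fold. Lef1 had 1 intronic peak of 16 tags with p above 1e-05. Ctnnb1, the beta-catenin gene, had no marked base and 1 peak within 50 kb, and Tcf7 had no region in that span.

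The roles could not be ranked. H3K9me3 at a start or in the body was found in 43.8% of ligands (19.8 to 70.1%), 60% of receptors (32.3 to 83.7%), 33.3% of secreted inhibitors (7.49 to 70.1%), 55.6% of cytoplasmic components and 66.7% of nuclear factors (22.3 to 95.7%), and all of these intervals overlap. Over the 60 members the share was 51.7% (38.4 to 64.8%), against 30.9% of all protein-coding genes. H3K9me3 in the body was found in 29 members (48.3%) and in 28.0% of all genes. Length moved with these shares, and the roles differed in length. Median gene length was 72.6 kb for nuclear factors, 30.4 kb for cytoplasmic components and 22.5 kb for ligands. For secreted inhibitors it was 9.89 kb and for receptors 7.19 kb. The shares by role were not matched for length. In genes of 50 kb or longer 17 of 20 members were marked, and 70.9% of all genes of that length. Of members of 10 to 50 kb 8 of 24 were marked, against 27.2% of all genes, and of those under 10 kb 6 of 16, against 12.6%. Within 50 kb the mark was near most genes, 52 members (86.7%) and 79.0% of all.

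**Figure D4:**
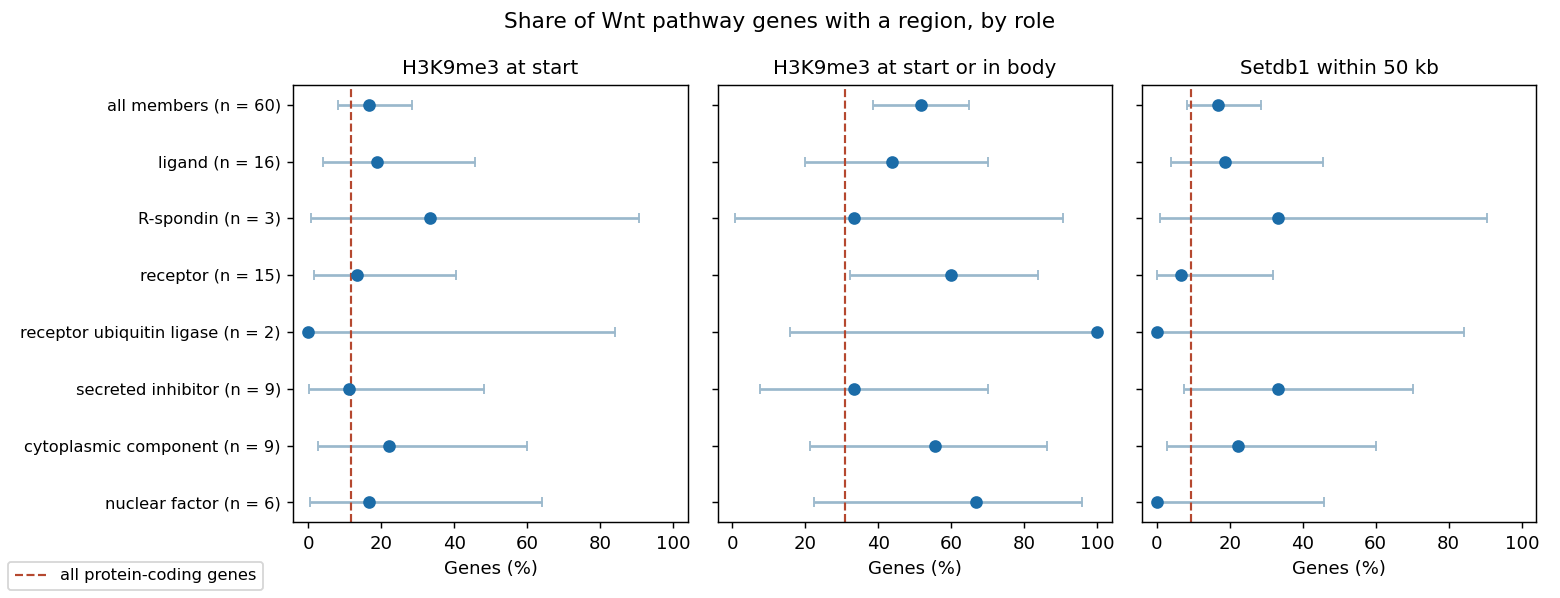
Points give the percentage of members, in all and by role, with an H3K9me3 region at a start (left), at a start or in the body (middle) or a Setdb1 site within 50 kb (right), with exact 95% binomial intervals as bars; the dashed line is the share of all protein-coding genes, 11.7%, 30.9% and 9.47%. The intervals of the 7 roles overlap in each panel.

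Setdb1 sites were listed within 50 kb of some members, and of none of the 5 covered ones. With 9.47% of all genes near a site, an absence from 5 genes carries little information. The authors describe their 1191 sites as an underestimate, since depth had not reached a plateau. No member had a site at a start (upper limit of the interval 5.96%) and Axin1 alone had one in the body, both near the shares of all genes given above. Within 50 kb, 10 members had a site (16.7%, 8.29 to 28.5%) against 9.47% of all genes, and 8 had one that overlapped H3K9me3 (13.3%, 5.94 to 24.6%) against 6.09%. For any site this order depended on the window, since within 10 kb 2 members had a site (3.33%) against 4.06% of all genes. For sites that overlapped H3K9me3 the order was kept at 10 kb, on the same 2 members (3.33%) against 2.51%. Distances from a start to the nearest site were 760 kb for Axin2, 1080 kb for Wnt5a, 2510 kb for Sp5, 2790 kb for Fzd8 and 3370 kb for Fzd10, where the median was 347 kb over the members and 628 kb over all genes. None of the islands over these 5 genes held a Setdb1 site. Such overlap was uncommon in general, with 2.95% of all islands holding a site and 26 of the 885 islands of 20 kb or longer (2.94%).

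For 4 of the sites near members the nearest gene start was that of the member itself, and the 200 bases around the summit of each are shown for that reason, on the + strand of mm9 with CpG in capitals.
Axin1 site (chr17:26315727-26315926, + strand): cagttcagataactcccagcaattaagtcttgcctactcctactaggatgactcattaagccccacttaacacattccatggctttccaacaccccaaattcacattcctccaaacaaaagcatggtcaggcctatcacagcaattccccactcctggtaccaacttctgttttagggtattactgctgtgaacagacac
Rspo2 site (chr15:43011268-43011467, + strand): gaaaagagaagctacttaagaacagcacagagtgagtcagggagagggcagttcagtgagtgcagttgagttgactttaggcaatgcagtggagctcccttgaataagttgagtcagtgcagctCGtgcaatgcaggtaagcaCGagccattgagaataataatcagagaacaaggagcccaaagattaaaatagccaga
Gsk3b site (chr16:38070147-38070346, + strand): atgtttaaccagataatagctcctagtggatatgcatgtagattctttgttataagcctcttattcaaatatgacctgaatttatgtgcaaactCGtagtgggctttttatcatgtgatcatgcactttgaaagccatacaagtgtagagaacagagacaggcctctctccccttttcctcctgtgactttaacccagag
Wnt7b site (chr15:85443543-85443742, + strand): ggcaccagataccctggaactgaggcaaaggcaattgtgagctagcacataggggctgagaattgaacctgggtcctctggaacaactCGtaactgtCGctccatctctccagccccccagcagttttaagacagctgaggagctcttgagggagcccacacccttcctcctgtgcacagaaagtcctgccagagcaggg
These windows held 0 to 2 CpG, with ratios of 0.0 to 0.209, below those of the 4 start windows above. Over the whole site the ratio of observed to expected CpG was 0.0663 in Axin1, 0.0732 at Rspo2, 0.0505 at Gsk3b and 0.149 at Wnt7b, where the median of all 1191 Setdb1 sites was 0.186. The TCF/LEF motif matched once, as CTTTGAA from base 126 of the Gsk3b window, and 6.55% of the windows of all Setdb1 sites hold a match.

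The Axin1 site (chr17:26315615-26315990) was intronic, 9.27 kb from the nearest start, with 20 tags and 6.71-fold enrichment. It lay under the stronger of the H3K9me3 peaks of Axin1, which had 108 tags and 10.31-fold, in an island of 5.2 kb. The Rspo2 site (chr15:43010928-43011895) was 9.0 kb upstream of the start with 52 tags, the most of any of these sites, and 8.06-fold, and its H3K9me3 peak had 29 tags and 8.73-fold in an island of 1.2 kb. The Gsk3b site (chr16:38070042-38070506) was 18.8 kb upstream with 28 tags and 8.05-fold. It lay over an H3K9me3 peak of 15 tags and 6.18-fold, with p above 1e-05, in an island of 4.2 kb. At Wnt7b the site was 31.4 kb upstream, with 34 tags and 7.14-fold, over an H3K9me3 peak of 56 tags and 3.74-fold in an island of 15.2 kb. Each of the 4 thus coincided with H3K9me3, as did 820 of all 1191 Setdb1 sites, and none was at a promoter.

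The remaining 6 sites were closer to the start of another gene than to the member. Wnt1 and Wnt10b, neighbours on chromosome 15, shared a site in an intron of Arf3 with 33 tags and 7.05-fold, 45.6 and 30.3 kb from their starts, and it overlapped an H3K9me3 peak of 103 tags and 13.06-fold. The site counted for Lgr4 (6.74-fold, 45 tags) was 0.792 kb from the start of Lin7c and 27.6 kb from that of Lgr4, and overlapped a peak of 5.1-fold. That of Sfrp2 (6.91-fold, 31 tags) was 35.1 kb downstream of the start and overlapped a peak of 5.5-fold. Outside H3K9me3 lay the pair counted for Notum, of 8.72- and 8.05-fold, which was 0.385 kb from the start of Mafg and 0.191 kb from that of Gm17586, and the site 43.9 kb from Dkk3 (5.83-fold, 27 tags). The pair had CpG ratios of 0.984 and 0.633, and the 8 other sites of 0.0505 to 0.248.

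In the wider pathway, 83 of 84 further genes on a list of the same pathway and its targets were found in the annotation. H3K9me3 at a start or in the body was found in 40 of them (48.2%, against 30.9% of all genes). By role these were 5 of 6 ligand and secretion genes, 8 of 13 receptor and membrane genes and 3 of 6 secreted inhibitors. Cytoplasmic genes gave 13 of 22, nuclear genes 8 of 19 and target genes 3 of 17 (17.6%). The share of 48.2% was not matched for gene length. At a start H3K9me3 was found in 14 (16.9%, against 11.7%), of which 1 was a target gene (5.88% of the 17). Cover of at least 90% was found in 2 of the 83 (2.41%), near the 1.66% of all genes. They were Sostdc1, a secreted inhibitor of BMP and Wnt signals (100%), and Prickle1 (90.3%), a planar cell polarity gene. No gene of this list had a Setdb1 site at a start, against 1.11% of all genes, and 6 had one within 50 kb (7.23%, against 9.47%). Vangl1, a membrane protein of planar cell polarity, had a site in the body, of 6.74-fold (1.2% of the list, against 1.76% of all genes). Wnt8b (11.41-fold), Csnk1e (10.37-fold), Parp1 (9.36-fold), Csnk1a1 (8.05-fold) and Id2 (4.88-fold) had a site within 50 kb outside the gene. All 6 overlapped H3K9me3, as did 820 of all 1191 Setdb1 sites.

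The lists measure chromatin and not expression, so they cannot show which cell type was sampled. None of 6 myoblast markers (Myod1, Myf5, Des, Cdh15, Pax7 and Itga7) had H3K9me3 at a start, where 11.7% of all genes did. In the body 2 of them had it (33.3%), where 28.0% of all genes did. Of 8 markers of other lineages 4 had H3K9me3 at a start, Sox2, Cdh5, Ptprc and Neurod1, and Pou5f1, Gfap, Alb and Krt5 did not. In the body 3 of these 8 had it (37.5%), against the same 28.0%. No marker of either kind had a Setdb1 site within 50 kb, where 9.47% of all genes did.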

How the data were processed

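Chromatin from C2C12 myoblasts was precipitated and sequenced by the authors, who aligned reads to mm9 with Bowtie 0.12.7, kept unique alignments without PCR duplicates, and called peaks over input with MACS 1.4 and broad H3K9me3 islands with SICER. Reads in repeats are therefore underrepresented. The deposited tag counts per peak are whole reads, not scaled for depth, and library totals were not used here. The deposited fold enrichment is a ratio to the background that MACS estimated. In 71.6% of H3K9me3 peaks it lay within 0.012 of a whole multiple of 0.687, and in 40.0% of Setdb1 sites of 0.671. At these the background was taken to be a genome-wide rate and not local input, so folds are stepped and often tied. In the islands over the 5 covered genes this held for 68.9% (Axin2) to 100% (Sp5 and Fzd8) of peaks. The deposited score is -10 log10 of the MACS p-value, and p below 1e-05 means a score above 50. The false discovery rate in percent deposited by the authors set no limit here. Island tables were used for positions only.

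Genes were matched by symbol to GENCODE vM1 on NCBIM37, whose chromosome lengths held all listed positions. An overlap of 1 bp counted. Windows were 1 kb around starts and 50 kb around genes, and shares have 95% Clopper-Pearson intervals (Python 3.11.15, SciPy 1.17.1, pandas 2.3.3). Sequences were read from the same genome. The overlap functions were tested on simulated data.

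Every member is accounted for. Values per region are given for members with a Setdb1 site within 50 kb, members with a peak of p below 1e-05 at a start, in each role up to 3 members with the highest peaks of that p, and the 5 with most cover, and values of other members were added after they were seen. Members and lists were chosen with earlier results of these data known, so no test was run over them. Alternatives changed the caller, the p limit, the windows, the Setdb1 fold and the overlap rule.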

Additional observations from a re-analysis of the deposited data

How the results depend on the processing

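Of 54 alternatives, 44 left a value within 1.5 times or its spread. Shares of all genes under the same setting are in parentheses. With a start window of 5 kb, 23 members, or 38.3%, had H3K9me3 at a start (23.4%). With MACS peaks of p below 1e-05 only, 18 members, or 30.0%, had H3K9me3 in the body (16.6%), 4 ligands, or 25.0%, had it at a start or in the body (18.5%), and the median share of the gene was 0, as it was with SICER islands only. With Setdb1 sites of 8-fold or more, 3 members, or 5.0%, had a site within 50 kb (3.73%), 2, or 3.33%, had one in H3K9me3 (2.9%), and 0 had one in the body (0.752%), since the Axin1 site was below that fold. With 10 kb on each side, 2 members, or 3.33%, had a Setdb1 site (4.06%), and both sites lay in H3K9me3 (2.51%), so the excess over all genes at 50 kb was absent from the Setdb1 count at 10 kb. Chosen after seeing the data, a count of genes covered to 90% or more by MACS peaks only gave 0 members and by SICER islands only 5, and a limit of 50% gave 6, so the covered genes are defined by islands. No paired analysis was possible because no group has a second library, and no replicate could be left out. Library depth, the fragment count behind an island and the response to Wnt3a were not analysed here.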
